A study of Mus musculus with 3 samples.

Results

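Ccl2, Ccl7 and Ccl12, which encode the monocyte chemoattractant proteins of the mouse, and Ccr2, which encodes their shared receptor, were followed through irreversible electroporation (IRE) injury of the adult mouse liver. These 4 genes, of 19091 listed in any library, were taken by name, and they had been chosen by their levels per library and per cell class in earlier results of the same data. Their levels are therefore described here without a test. All mice were adult C57BL/6. The control library came from livers after sham surgery, with tissue taken 1 day later from a matching area that had not been injured. The other libraries came from the electroporated area at 1 day and at 7 days post-injury (p.i.), after 8 pulses of 50 ms, 1 s apart, at 75 V according to the labels, while the study's methods give a lower voltage. Tissue was cut out with a 4 mm punch, digested with dispase, collagenase and DNase, treated to lyse red blood cells and loaded for Drop-seq, a droplet method in which each cell's messenger RNA is tagged with a cell barcode and a unique molecular identifier (UMI). Each library pooled 3 livers, and there was 1 library per condition, so no difference below has a replicate check. Intervals are 95% intervals for counting error only.

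CC chemokines are small secreted proteins that guide leukocytes through G-protein-coupled receptors. Ccl2 and Ccl7 bind Ccr2 and draw Ly6C-high classical monocytes out of the bone marrow and into inflamed tissue, where many become macrophages, and Ccl12 is a further Ccr2 ligand found in rodents. In the liver, Kupffer cells, the resident macrophages, are a known early source of Ccl2, and recruited Ccr2+ monocytes take part both in injury and in its resolution.

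In the mouse genome the 3 ligand genes lie close together on chromosome 11, in the protein-coding order Ccl2, Ccl7, Ccl11, Ccl12 and Ccl8, and Ccr2 lies on chromosome 9. Drop-seq reads fall near the 3' end of a transcript, so near-identical genes could share them. In the GENCODE M21 transcripts, Ccl2, Ccl7 and Ccl12 shared no 30-base stretch with each other or with Ccl8 or Ccl11. The RefSeq promoter windows of Ccl12 and Ccr2 are shown because the set of windows used held these genes but not Ccl2 or Ccl7. Each window covers 300 bases around the transcription start on the plus strand of GRCm38.p6, and the promoters of Ccl2 and Ccl7 are named only. Capitals mark a TATAAA motif.

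The windows read, 5′ to 3′, as chr11:82101595-82101894 for Ccl12 (48% G or C) and chr9:124101933-124102232 for Ccr2 (38% G or C).
Ccl12: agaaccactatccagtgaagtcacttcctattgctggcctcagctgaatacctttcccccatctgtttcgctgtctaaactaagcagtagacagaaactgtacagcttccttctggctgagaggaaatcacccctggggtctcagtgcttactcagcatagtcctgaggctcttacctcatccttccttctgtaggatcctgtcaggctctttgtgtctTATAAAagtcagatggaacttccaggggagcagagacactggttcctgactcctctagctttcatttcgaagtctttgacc
Ccr2: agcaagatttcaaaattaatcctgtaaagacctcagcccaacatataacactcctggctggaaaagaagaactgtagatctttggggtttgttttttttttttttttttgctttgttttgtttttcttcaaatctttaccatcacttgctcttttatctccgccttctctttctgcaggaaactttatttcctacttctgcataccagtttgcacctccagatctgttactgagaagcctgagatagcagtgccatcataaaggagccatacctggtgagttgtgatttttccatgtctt

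Ccl12 held TATAAA 31 bases before its start, a motif found on either strand in 13.6% of 32851 RefSeq windows of this length, and the Ccr2 window held none. The PU.1 core GAGGAA stood 130 bases before the start of Ccl12 and is found in 28.3% of all windows. Neither window had a match on either strand to the NF-kB consensus (0.411% of windows), the AP-1 motif TGANTCA (7.81%), the C/EBP motif TTGCNNAA (10.8%) or the STAT motif TTCNNNGAA (8.30%). These matches describe the letters of the windows and say nothing of binding.

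A barcode was counted as a cell where at least 200 genes were detected, which left 10386 cells in the control, 9253 at 1 day and 5624 at 7 days p.i., with 8013800, 6107866 and 3058967 UMIs. The median was 595, 509 and 456.5 UMIs per cell, and mitochondrial transcripts took 20.5%, 21.7% and 4.10% of UMIs. Between 44 and 149 cell barcodes were shared by each pair of libraries, of 25263 cells in all. Leaving them out moved the 8 ratios of the members to the control by less than their counting intervals, with Ccl2 at 36.4 in place of 34.4 at 7 days p.i. as an example. The genome build named in the submitters' processing notes is human, while the gene symbols are those of the mouse, so no coordinates of the measured genes were taken from the count tables.

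All 3 ligands had the same course over the libraries: present at a low level in the control, lower at 1 day p.i. and far higher at 7 days p.i. Levels are given as UMIs per 1000000 UMIs of the cells in a library (CPM). Ccl2 stood at 46.9 CPM in the control (42.3 to 51.9, 376 UMIs), 17.5 CPM at 1 day (14.4 to 21.2, 107 UMIs) and 1615 CPM at 7 days p.i. (1571 to 1661, 4941 UMIs). Ccl7 stood at 27.8 CPM (24.3 to 31.7, 223 UMIs), 8.84 CPM (6.64 to 11.5, 54 UMIs) and 641 CPM (613 to 670, 1961 UMIs) in the same order. Ccl12, the sparsest of the 4, stood at 18.1 CPM (15.3 to 21.3, 145 UMIs), 2.13 CPM (1.13 to 3.64, 13 UMIs) and 163 CPM (149 to 178, 498 UMIs). The intervals of the libraries did not overlap for any ligand. Ccr2, the receptor, had a different shape: 411 CPM in the control (397 to 425, 3295 UMIs), 78.9 CPM at 1 day (72.0 to 86.3, 482 UMIs) and 750 CPM at 7 days p.i. (720 to 781, 2294 UMIs). Its low point at 1 day was as plain as that of the ligands, but at 7 days p.i. it stood less than 2-fold above the control.

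**Figure D1:**
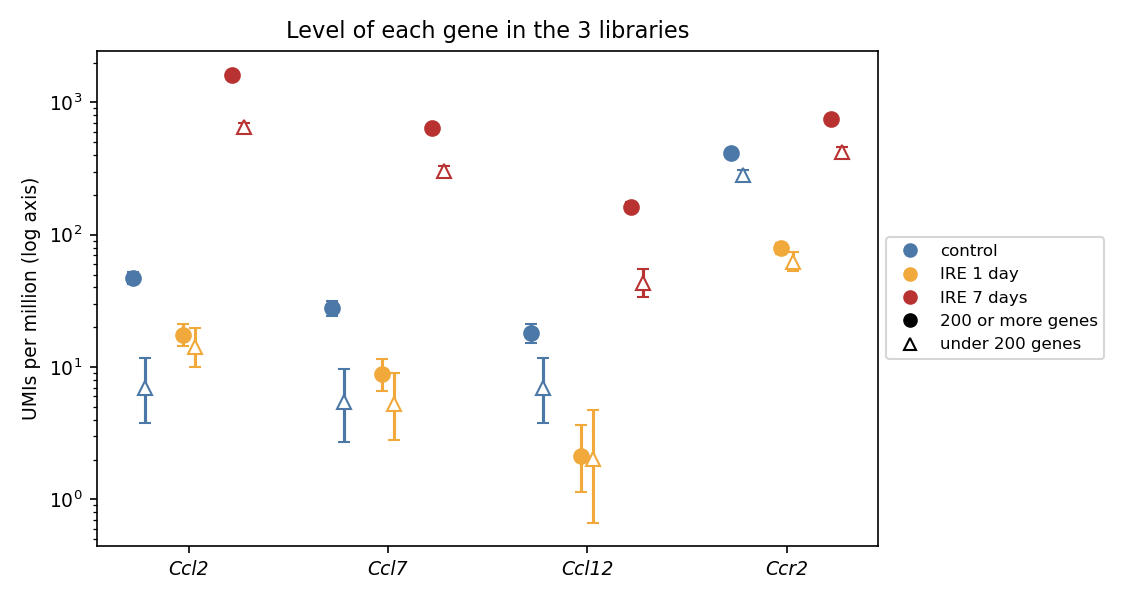
Level of each gene in CPM (log axis) in the control, 1-day and 7-day libraries, with circles for barcodes of at least 200 genes, open triangles for barcodes under 200 genes and bars for exact 95% Poisson intervals. Each gene is lowest at 1 day and highest at 7 days p.i. among the circles, and Ccl2 spans 17.5 to 1615 CPM while Ccr2 spans 78.9 to 750 CPM.

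Against the control, the 1-day library had 2.68-fold less Ccl2, with a ratio of 0.373 (0.298 to 0.464). The ratio was 0.318 for Ccl7 (0.231 to 0.429), 0.118 for Ccl12 (0.0612 to 0.208) and 0.192 for Ccr2 (0.174 to 0.211). Thus 4 of the 4 genes were at least 2-fold lower, where 5.86% of 11357 genes were (12.2% were at least 2-fold higher), and the median gene stood at 1.03. Since the genes had been picked with these ratios in view, nothing is read from that count. In a sum over a library, fewer cells of a type and less RNA per cell cannot be told apart. When each gate's 1-day level was weighted by the gate shares of the control, the ratio of Ccl2 became 0.931 and that of Ccl7 0.812. For Ccl2 that value rested on 1 cell of the monocyte gate, without which it was 0.499. The Ccl7 value gave control weights to the monocyte gate, with 1 Ccl7 UMI at 1 day, and to 41 lipid-associated macrophages. Within the Kupffer and C1q macrophage gates, the Ccl7 ratios were 0.200 and 0.330.

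At 7 days p.i. the ligands stood 34.4-fold (Ccl2, 31.0 to 38.3), 23.0-fold (Ccl7, 20.05 to 26.6) and 8.998-fold (Ccl12, 7.46 to 10.9) above the control. Ranked by this ratio among 10227 genes with at least 50 UMIs in the libraries compared, they took places 17, 34 and 108. Ccr2 stood 1.82-fold above the control (1.73 to 1.92), at place 1103. So 3 of the 4 genes were at least 2-fold higher, beside 8.79% of all genes (21.8% were at least 2-fold lower), again with no test because of how the genes were picked. Ccr2 reached 2-fold with a stricter choice of cells, at 2.69 with at least 500 genes per cell and at 2.04 with at most 20% mitochondrial UMIs. The step from 1 day to 7 days p.i., which does not involve the control, was 92.2-fold for Ccl2 (76.1 to 113), 72.5-fold for Ccl7 (55.3 to 96.9), 76.5-fold for Ccl12 (44.3 to 145) and 9.50-fold for Ccr2 (8.61 to 10.5). In that comparison 11.6% of 10271 genes were at least 2-fold higher and 27.8% were at least 2-fold lower.

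More cells held ligand transcripts at 7 days p.i., and each such cell held more of them. Without correction for depth, Ccl2 was seen in 2.57% of control cells, 0.854% at 1 day and 27.4% at 7 days p.i., and a cell with Ccl2 held on average 1.41, 1.35 and 3.21 UMIs of it. For Ccl7 the shares were 1.57%, 0.411% and 13.6%, with 1.37, 1.42 and 2.56 UMIs per positive cell. For Ccl12 they were 1.05%, 0.130% and 4.71%, with 1.33, 1.08 and 1.88 UMIs. For Ccr2, by contrast, the share moved from 19.1% to 4.17% and 25.3%, and positive cells held 1.66, 1.25 and 1.61 UMIs, so that the content of a positive cell at 7 days p.i. was no higher than in the control.

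At 7 days p.i. some cells held many ligand transcripts. At least 10 UMIs of Ccl2 were held by 92 cells at 7 days p.i., against 2 cells in the control and none at 1 day, and the richest cell, which no gate took, held 57. At 7 days p.i. the 56 cells (1%) richest in each gene held 20.2% of the Ccl2 UMIs, 30.5% of Ccl7, 50.2% of Ccl12 and 12.6% of Ccr2. The richest 1% held more of Ccl2 in the control, 56.6%, and all of it at 1 day. Such shares depend on how many cells have the gene at all, such as 265 for Ccl12 and 1541 for Ccl2 at 7 days p.i. They are therefore not compared between genes or libraries. The most seen in a cell at 7 days p.i. was 24 UMIs for Ccl7, 11 for Ccl12 and 9 for Ccr2.

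To place the transcripts in cell classes, each cell was assigned to a gate from 18 lists of marker genes. None of the lists holds any of the 4 genes, but they were chosen with earlier results of these data known. Gates and genes were thus not picked independently, and levels by gate are a description. A cell entered a gate when at least 2 markers of that list stood above their library mean and led every other list by at least 1 marker. Between 74.5% and 75.1% of cells were gated in each library, and gates with at least 50 cells are described. Further markers not used for gating were higher inside than outside their own gate in 104 of 104 checks over the 32 gate-and-library groups with at least 50 cells. Some leads were narrow, such as Lyz2 in 7-day C1q macrophages (8017 against 7029 CPM). Others rested on few UMIs, such as Il7r in 7-day T cells (4 UMIs, 107 against 95.3 CPM). The count therefore does not measure how pure a gate is. Among the gate markers, Adgre1 (C1q macrophages), Chil3 (monocytes) and Fcmr (B cells) were at 0 in every library, and Arg1, which gives a macrophage gate its name, is also a hepatocyte gene. The gates differed greatly in size: the monocyte gate held 1282 cells in the control (12.3%), 68 at 1 day (0.735%) and 970 at 7 days p.i. (17.2%), and the Kupffer gate held 1091 (10.5%), 1585 (17.1%) and 106 (1.88%). The Arg1 gate held 21 control cells, 6 at 1 day and 720 at 7 days p.i. (12.8%), so it is described at 7 days p.i. only. The neutrophil gate held 1646 cells at 7 days p.i. (29.3%), in a library in which the neutrophil markers S100a8 and S100a9 reached 7556 and 5340 CPM even outside that gate, against 617 and 493 CPM in the control.

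In the control liver, the ligands were highest in macrophage gates. Ccl2 stood at 112 CPM in lipid-associated macrophages (87.5 to 140), 94.3 CPM in Kupffer cells (76.9 to 115), 62.5 CPM in macrophages with C1q (47.5 to 80.8) and 33.0 CPM in monocytes (21.8 to 48.0). The first of these values rested in part on 1 cell with 21 of 73 UMIs, and it did not differ from the Kupffer value beyond counting error, whereas Kupffer cells exceeded C1q macrophages by 1.51-fold (1.08 to 2.12). Mesenchymal cells, at 40.3 CPM, and endothelial cells, at 23.2 CPM, held Ccl2 too. Ccl7 was alike in Kupffer cells, at 63.8 CPM (49.6 to 80.8), and C1q macrophages, at 63.6 CPM (48.4 to 82.0), and it was nearly absent from monocytes, with 4 UMIs in 1282 cells. Ccl12 had another home: the C1q macrophages held 56.6% of its UMIs and stood at 88.3 CPM (70.3 to 110), 3.54-fold above Kupffer cells (2.27 to 5.69). In all, macrophage gates held 63.0% of the Ccl2, 72.6% of the Ccl7 and 81.4% of the Ccl12 UMIs in 27.4% of the control cells.

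Ccr2 in the control followed the monocytes, its known carriers, and several lymphoid and dendritic gates. It stood at 1501 CPM in the monocyte gate (1418 to 1588), 2.57-fold above the NK gate (2.07 to 3.24), the next in order at 584 CPM. Dendritic cells of type cDC1, which present antigen to CD8+ T cells, stood at 557 CPM (462 to 666), C1q macrophages at 454 CPM (411 to 499), plasmacytoid dendritic cells at 405 CPM, neutrophils at 380 CPM and T cells at 315 CPM. Kupffer cells, at 86.0 CPM (69.4 to 105), and B cells, with 4 UMIs in 128 cells, were among the lowest. Endothelial cells, which should lack Ccr2, still gave 132 CPM (111 to 157), so the Kupffer and B cell values are not read as expression. Control barcodes under 200 genes held more, 284 CPM (262 to 309), near the T cell value of 315 CPM.

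**Figure D2:**
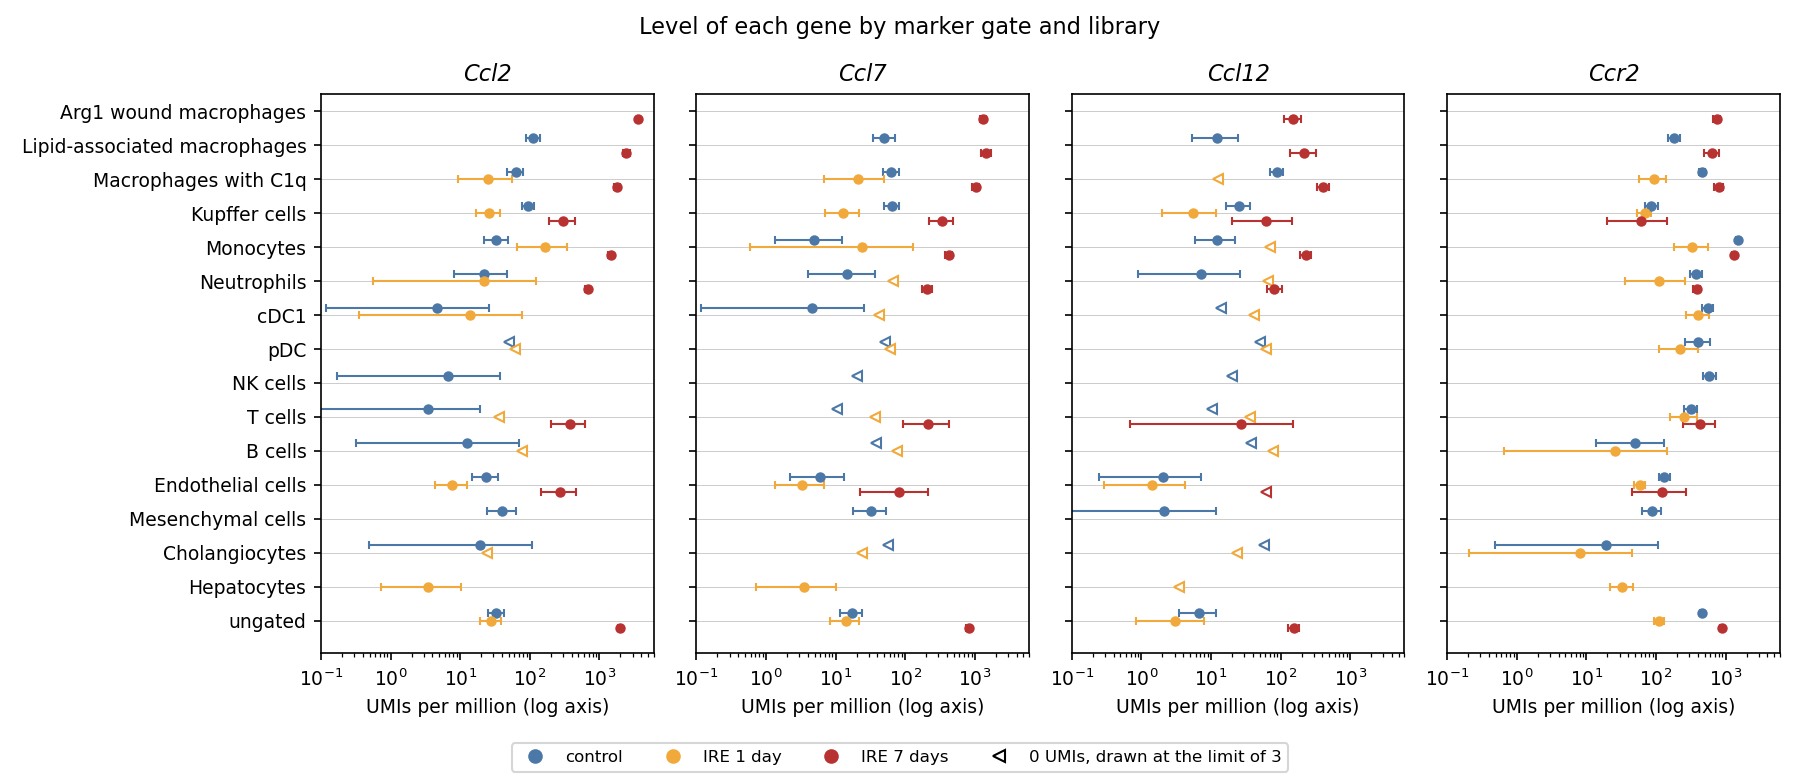
Level of each gene in CPM (log axis) in the gates with at least 50 cells of each library, with bars for exact 95% Poisson intervals and open triangles at the 3-count limit where no UMI was found. At 7 days p.i. Ccl2 is highest in the Arg1 gate (3617 CPM), Ccl12 in C1q macrophages (412 CPM) and Ccr2 in monocytes (1334 CPM).

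At 1 day p.i. the ligands were lower than in the control in the Kupffer and C1q macrophage gates. In the Kupffer gate, which held more cells than in the control, Ccl2 stood at 25.6 CPM against 94.3 CPM, a ratio of 0.271 (0.172 to 0.415). Ccl7 in the same gate stood at 12.8 CPM (ratio 0.200) and Ccl12 at 5.48 CPM (ratio 0.219, 0.0741 to 0.542). Outside this gate, the Kupffer markers Cd163, Il18bp and Fcna stood at 187, 116 and 587 CPM, against 49.2, 63.8 and 180 CPM in the control. The gate may therefore not hold the same cells in both libraries. In C1q macrophages Ccl2 had a ratio of 0.403 (0.142 to 0.931), and no UMI of Ccl12 was found in 420 cells, which allows up to 12.6 CPM against 88.3 CPM in the control. The fall was not limited to macrophage gates: endothelial cells had a Ccl2 ratio of 0.328 (0.162 to 0.648). Cells in no gate held 36 of the 107 Ccl2 UMIs and did not differ from the control beyond counting error. Their ratio was 0.848 for Ccl2 (0.543 to 1.31) and 0.819 for Ccl7 (0.430 to 1.52). Ccl2 in monocytes stood higher, at 165 CPM against 33.0 CPM, but 6 of its 7 UMIs came from 1 cell, and the ratio of 5.01 turned to 0.870 without the 5% of cells richest in UMIs. Ccl7 in monocytes and Ccl2 in neutrophils had 1 UMI each at 1 day p.i., too few to read.

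Ccr2 at 1 day p.i. was lower within several gates as well as in the sum. In the few monocytes it stood at 331 CPM (181 to 555) against 1501 CPM, a ratio of 0.2202 (0.12004 to 0.371), and in C1q macrophages at 92.3 CPM, a ratio of 0.204 (0.126 to 0.312). The highest value was in cDC1, at 401 CPM (268 to 575), which did not differ from the control beyond counting error (ratio 0.719, 0.462 to 1.09). It was not separated from monocytes by counting error (ratio 1.21, 0.620 to 2.48). No difference from the control beyond counting error was seen for T cells either, with a ratio of 0.814 (0.481 to 1.32). Monocytes carried 37.3% of all Ccr2 UMIs in the control and 2.90% at 1 day, when 25.5% fell to endothelial cells, which made up 38.8% of that library and stood at 58.5 CPM.

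Among the gates at 7 days p.i., Ccl2 was highest in monocytes and in the macrophage gates other than Kupffer cells, with an order among them. It stood at 3617 CPM in the Arg1 gate (3427 to 3815), 2446 CPM in lipid-associated macrophages (2157 to 2764), 1788 CPM in C1q macrophages (1627 to 1959) and 1449 CPM in monocytes (1352 to 1552). Each step in this order was larger than counting error, and the Arg1 gate exceeded monocytes by 2.496-fold (2.29 to 2.73). Because the gate markers and the genes were both chosen with earlier results known, the order is a description and was not tested. Neutrophils followed at 685 CPM (629 to 745), close to the 654 CPM of barcodes under 200 genes. T cells at 373 CPM (204 to 627), Kupffer cells at 296 CPM (190 to 440) and endothelial cells at 269 CPM (143 to 460) came last, and neighbors among these 3 did not differ beyond counting error. In the T cell gate, 11 of the 14 UMIs were in 1 cell. The Arg1 gate, whose markers include the matrix protein gene Thbs1 and the activin subunit gene Inhba, held 27.5% of all Ccl2 UMIs in 12.8% of the cells, monocytes held 16.5% and cells in no gate held 28.8%.

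Ccl7 at 7 days p.i. was highest in lipid-associated macrophages, at 1460 CPM (1239 to 1710), and in the Arg1 gate, at 1309 CPM (1195 to 1429), which did not differ beyond counting error (ratio 1.12, 0.925 to 1.34). C1q macrophages followed at 1031 CPM (910 to 1163), while monocytes stood at 420 CPM (368 to 477). Ccl12 again had its highest level in the C1q macrophages, at 412 CPM (337 to 498), 1.79-fold above monocytes (1.37 to 2.34) and 2.76-fold above the Arg1 gate (1.98 to 3.89), where it stood at 149 CPM (113 to 193). The C1q macrophages held 105 of its 498 UMIs, against 82 of 145 in the control. Monocytes held 129 and cells in no gate 111. Thus the gate with the most Ccl2 per UMI was not the gate with the most Ccl12. No Ccl12 UMI was found in the 77 endothelial cells, which allows up to 62.0 CPM.

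Ccr2 at 7 days p.i. remained highest in monocytes, at 1334 CPM (1240 to 1433), 1.68-fold above C1q macrophages (1.43 to 1.97), the next at 796 CPM. The Arg1 gate stood at 742 CPM (658 to 834) and lipid-associated macrophages at 635 CPM (492 to 807), and neighbors in the order from C1q macrophages down to neutrophils, at 386 CPM (344 to 431), did not differ beyond counting error. Kupffer cells were at the bottom with 5 UMIs in 106 cells. Barcodes under 200 genes held 425 CPM at 7 days p.i. (393 to 459), so the neutrophil value is not read as expression. Cells of the monocyte gate thus had the receptor at its highest level both in the control and at 7 days p.i., and the Arg1 gate combined the highest level of Ccl2 with 0.556 times the Ccr2 level of monocytes (0.483 to 0.639).

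Within gates that both libraries held, the ligands were also higher at 7 days p.i. than in the control. Ccl2 stood above the control by 43.9-fold in monocytes (30.0 to 67.1), 28.6-fold in C1q macrophages (21.7 to 38.3) and 21.9-fold in lipid-associated macrophages (16.8 to 28.8). It was 31.3-fold above in neutrophils (14.3 to 85.5, from 6 control UMIs; between 15.3 and 50.5 with other gates or cells), 3.14-fold in Kupffer cells (1.92 to 4.93) and 11.6-fold in endothelial cells (5.38 to 23.8). Barcodes under 200 genes of the 7-day library held 654 CPM of Ccl2 (614 to 696), close to the neutrophil value of 685 CPM. The 7-day Kupffer and endothelial values, 296 and 269 CPM, lay below that level. The folds of these 2 gates are therefore not read as expression by their own cells. With the endothelial level of each library taken off, the folds were 121 in monocytes and 38.7 in C1q macrophages, and the monocyte fold was 28.2 with a lead of 2 markers in the gate. The control level of Ccl2 in monocytes did not differ from that in endothelial cells beyond counting error (ratio 1.42, 0.784 to 2.59). Ccl7 stood 85.8-fold above the control in monocytes (33.1 to 318, from 4 control UMIs), 28.9-fold in lipid-associated macrophages, 16.2-fold in C1q macrophages and 5.22-fold in Kupffer cells (3.21 to 8.25). The 7-day Kupffer value of Ccl7, 333 CPM, was close to the 302 CPM of 7-day barcodes under 200 genes. Ccl12 stood 18.8-fold above in monocytes (9.88 to 40.1) and 4.66-fold in C1q macrophages (3.46 to 6.30).

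Ccr2 within gates behaved unlike the ligands. In monocytes it was slightly lower than in the control, at a ratio of 0.889 (0.810 to 0.974), and in neutrophils the ratio of 1.02 was within counting error of 1 (0.811 to 1.28). Neutrophils stood at 380 CPM in the control and 386 CPM at 7 days p.i., beside 284 and 425 CPM in barcodes under 200 genes. Their ratio is therefore not read as steady expression. With a marker counted at 1 UMI, the neutrophil ratio was 1.399 (1.18 to 1.67) and the monocyte ratio was 0.918 (0.815 to 1.03). It was higher in C1q macrophages, by 1.75-fold (1.48 to 2.08), and in lipid-associated macrophages, by 3.49-fold (2.55 to 4.75), from a control level of 182 CPM beside 132 CPM in control endothelial cells. Weighted by the control's gate shares, the library ratio of Ccr2 at 7 days p.i. was 1.37 in place of 1.82, while that of Ccl2 was 28.4 in place of 34.4.

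**Figure D3:**
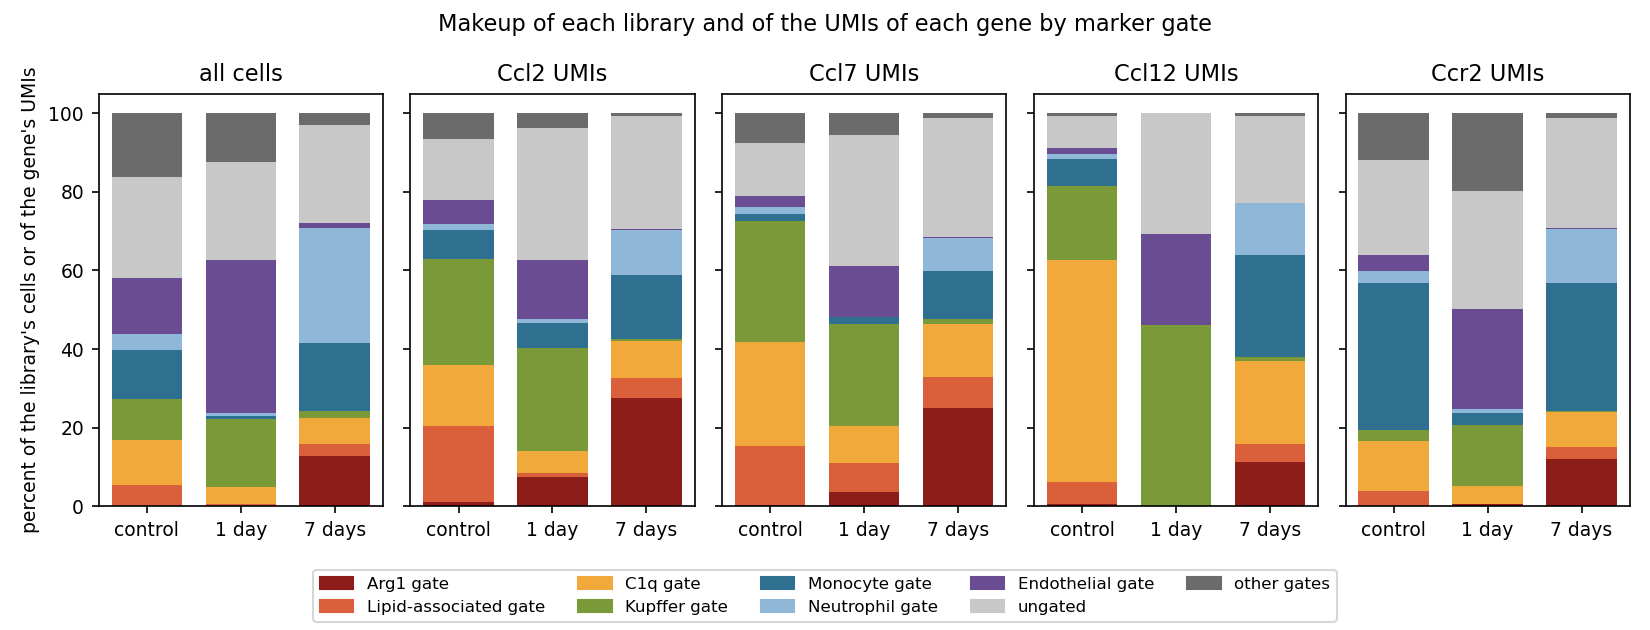
Share of the cells (left panel) and of each gene's UMIs (other panels), in percent, that came from each gate, as stacked bars for the control, 1-day and 7-day libraries. Kupffer cells hold 27.1% of Ccl2 in the control and the Arg1 gate 27.5% at 7 days p.i., while monocytes hold 37.3% of Ccr2 in the control and 32.7% at 7 days p.i.

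Shares of cells with a UMI were compared after thinning every cell to 300 UMIs, which leaves out shallower cells. In the Arg1 gate at 7 days p.i., 260 of 658 cells had Ccl2, or 39.5% (35.8% to 43.4%; 45.8% unthinned), against 32.3% of lipid-associated macrophages, 26.9% of C1q macrophages, 23.1% of monocytes (20.3% to 26.0%; 30.3% unthinned) and 10.3% of neutrophils. B cells, which should lack the ligands, numbered 11 at 7 days p.i., too few for a share, and the T cell gate had Ccl2 in 2 of 64 cells (3.12%) and the endothelial gate in 3 of 66 cells (4.55%, 0.947% to 12.7%). The neutrophil share lay inside that last interval, and the macrophage and monocyte shares named above lay beyond it. In the control the Ccl2 share was 1.88% in Kupffer cells and 0.717% in monocytes, and none of 128 B cells had it. Ccr2 was seen in 34.7% of control monocytes (32.1% to 37.4%; 51.9% unthinned), 9.23% at 1 day (6 of 65 cells, 3.46% to 19.0%) and 27.3% at 7 days p.i. (24.4% to 30.4%; 41.4% unthinned). For comparison, 0.781% of control B cells and 3.14% of control endothelial cells had Ccr2. In C1q macrophages the Ccr2 share was 11.2% in the control and 20.5% at 7 days p.i., and the Ccl12 share was 2.46% and 8.38% (5.69% to 11.8%; 14.4% unthinned). For Ccl2 at 7 days p.i. the shares of the Arg1 gate, lipid-associated macrophages, C1q macrophages, monocytes and neutrophils stood in the order of their CPM values, while the T cell and endothelial shares did not, and in the control lipid-associated macrophages (1.32%) stood below Kupffer cells. For Ccr2 in monocytes and C1q macrophages, shares and CPM differed from the control in the same direction.

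At 7 days p.i., cells with 1 ligand held a second ligand more often than cells without it. After thinning, Ccl7 at 7 days p.i. was present in 338 of 1088 cells with Ccl2, or 31.1% (28.3% to 33.9%), and in 4.26% of 3991 cells without it (3.65% to 4.93%). Conversely, 66.5% of the 508 cells with Ccl7 and 61.1% of the 157 cells with Ccl12 also had Ccl2. This also held inside single gates: in the Arg1 gate 36.2% of cells with Ccl2 had Ccl7, against 7.29% of those without, and the values were 35.5% and 8.30% in C1q macrophages and 24.3% and 3.57% in monocytes. In the Arg1 gate, 18 of the 19 cells with Ccl12 also had Ccl2. In the control, where few cells had any ligand, 9 of 100 cells with Ccl2 had Ccl7 (interval 4.198% to 16.4%), against 0.576% of the others. Other pairs were too sparse there: in control C1q macrophages none of 21 cells with Ccl2 had Ccl12, against 2.504% of the others.

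The receptor did not follow its ligands from cell to cell. Over all cells at 7 days p.i., Ccr2 was seen in 17.0% of cells with Ccl2 and in 16.5% of cells without it. Inside the Arg1 gate the shares were 14.2% (10.2% to 19.1%) and 19.8% (16.0% to 24.1%), in C1q macrophages 15.1% and 22.5%, and in monocytes 22.3% (16.7% to 28.7%) and 28.8% (25.4% to 32.4%), with intervals that overlapped. The order was the opposite in lipid-associated macrophages, at 15.7% and 12.2%, and in neutrophils, at 11.4% and 8.10%, also with overlapping intervals. Cells in no gate had 20.3% and 20.7%. Cells with Ccr2 and at least 1 ligand made up 6.40% of monocytes (56 of 875 cells), 6.53% of the Arg1 gate (43 of 658) and 4.47% of all cells at 7 days p.i., against 0.265% of all control cells. At least 1 ligand was seen in 2.02% of control cells, 0.614% at 1 day and 25.7% at 7 days p.i.

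**Figure D4:**
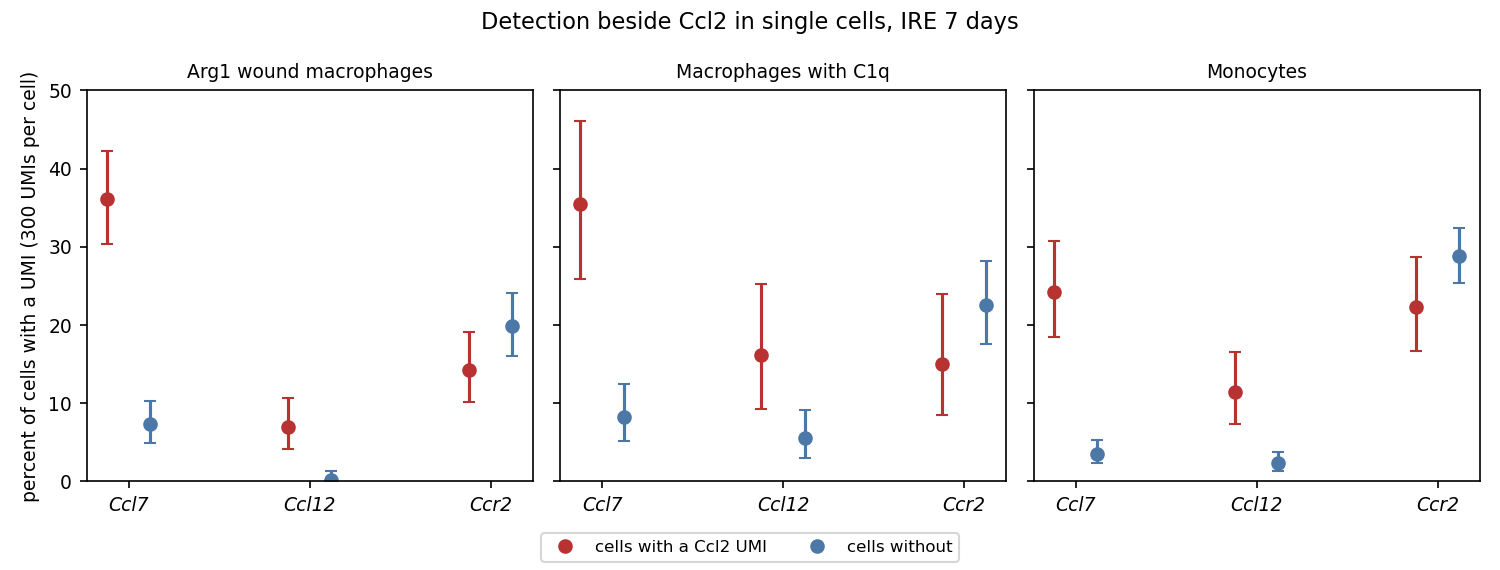
Percent of cells with a UMI of Ccl7, Ccl12 or Ccr2 among cells with (red) and without (blue) Ccl2 at 7 days p.i., after thinning to 300 UMIs, with exact 95% binomial intervals, in the Arg1, C1q macrophage and monocyte gates. In the Arg1 gate Ccl7 is in 36.2% of cells with Ccl2 and 7.29% of cells without it, whereas Ccr2 is in 14.2% and 19.8%.

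The wider pathway was read from a list of 61 genes sorted by role, of which 51 had at least 50 UMIs in the control and 1-day libraries together and 50 in the control and 7-day libraries. At 1 day p.i., 2 were at least 2-fold higher and 12 at least 2-fold lower, with a median ratio of 0.719 beside 1.03 over all genes, of which 12.2% were higher and 5.86% lower. At 7 days p.i., 20 were at least 2-fold higher and 4 lower, with a median ratio of 1.38 beside 0.862 over all genes, of which 8.79% were higher and 21.8% lower. As the list was made with earlier results known, its counts are a description.

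Among the other CC ligands, 5 of 9 were at least 2-fold higher at 7 days p.i., beside 8.79% of all genes. These were Ccl4 (16.9-fold) and Ccl3 (10.9-fold), which attract macrophages and T cells, Ccl9 (10.9-fold) and Ccl6 (9.46-fold), which act on Ccr1, and Ccl24 (2.38-fold), an eosinophil attractant. Ccl8, the neighbor of Ccl12 on chromosome 11, went the other way: 92.0 CPM in the control, 3.27 CPM at 1 day and 10.1 CPM at 7 days p.i., a 7-day ratio of 0.1102 (0.0743 to 0.158). At 1 day p.i., Ccl8 (0.0356), Ccl9 (0.258) and Ccl3 (0.487) were at least 2-fold lower than in the control. Among receptors of myeloid cells, Ccr1 stood at a ratio of 0.266 at 1 day and 15.3 at 7 days p.i. Cx3cr1, the fractalkine receptor of patrolling monocytes, stood at 0.389 at 1 day and at 1.17 at 7 days p.i. (0.938 to 1.45). Of the decoy receptors, which bind chemokines without G-protein signaling, Ackr2 stood at 2.33 at 1 day, and Ccrl2, a presenter of chemerin, at 5.66 at 7 days p.i.

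Genes that induce the ligands were at least 2-fold higher at 7 days p.i. in 4 of 8 cases, beside 8.79% of all genes: Il1b (13.5-fold), the lipopolysaccharide receptor Tlr4 (3.94-fold), Tnf (2.79-fold) and the macrophage growth factor Csf1 (2.72-fold). The interleukin-1 receptor gene Il1r1 was lower, at 0.170 (0.0667 to 0.362), and at 1 day the interferon gene Ifng was lower, at 0.429. Of 9 transcription factors known at ligand promoters, the AP-1 genes Jun (2.57-fold) and Fos (2.49-fold) were higher at 7 days p.i., and Cebpb (0.256) and Fos (0.433) were lower at 1 day. Feedback inhibitors of the same signals were at least 2-fold higher in 5 of 6 cases at 7 days p.i., beside the same 8.79%: Nfkbiz (4.15-fold), Socs3 (4.03-fold), Dusp1 (3.64-fold), Zfp36 (3.41-fold), which destabilizes cytokine messages, and Nfkbia (2.998-fold). At 1 day p.i., Socs3 (0.433) and Tnfaip3 (0.488) were lower than in the control. None of the 9 genes downstream of Ccr2, such as Gnai2 and Rac2, passed 2-fold in either comparison with the control. Among proteases that trim CC chemokines, Dpp4 stood at 3.07 at 1 day and 0.298 at 7 days p.i., Mmp13 at 3.83 at 7 days, Mmp14 at 0.429 at 1 day, and Mmp2, a mesenchymal product with 350 control UMIs, at 0.0487 at 1 day and at no UMI at 7 days p.i., when the mesenchymal gate held 2 cells.

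**Figure D5:**
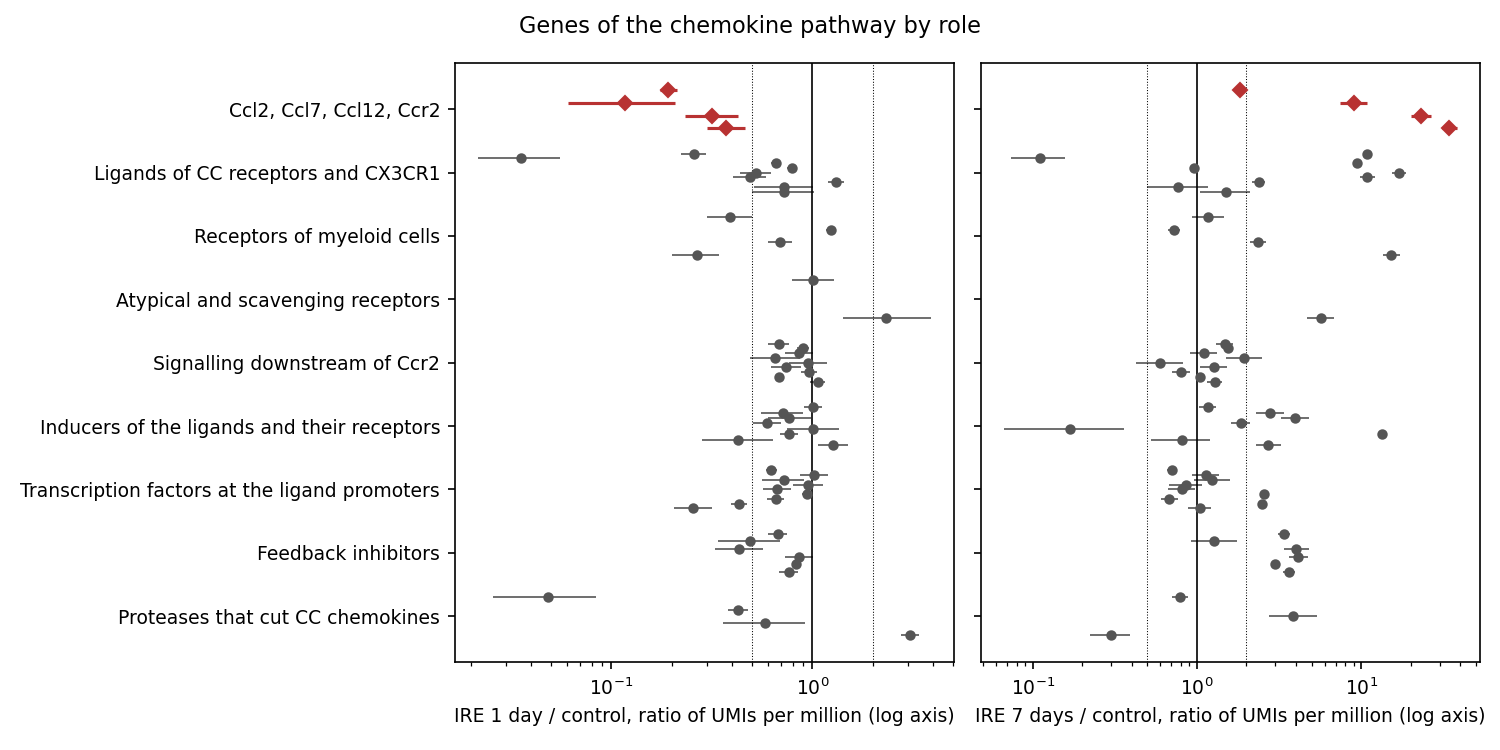
Ratio to the control library (log axis) of the 4 genes and of the pathway genes by role, at 1 day and 7 days p.i., with 95% conditional binomial intervals and lines at 2-fold. The other ligands lie below the control at 1 day apart from Ccl24, and 5 of 9 lie beyond 2-fold above it at 7 days, where Ccl8 lies at 0.1102 and Mmp2, with no UMI, has no point.

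Genes whose levels followed the members most closely were ranked by Pearson's r of log2(CPM + 10) over the 32 gate-and-library groups with at least 50 cells, among 8025 genes. These groups share libraries and depths, so r is a description. For Ccl2 the closest were Ccl7 (0.965), Ccl9 (0.918), the Arg1-gate marker Thbs1 (0.905), the heme-degrading enzyme gene Hmox1 (0.895) and the glycolytic enzyme gene Aldoa (0.888). For Ccl7 they were Ccl2, Ccl12 (0.912), Ccl9 (0.905), Hmox1 (0.898) and Ecm1 (0.895), and for Ccl12 they were Ccl7, Ms4a6d (0.881), Ccl2 (0.871), Aldoa (0.867) and Ccl9 (0.843). Each ligand thus had another ligand among its closest genes. Ccr2 had none: its closest were Fxyd5 (0.846), the actin-branching subunit gene Arpc1b (0.824), S100a4 (0.797), Pstpip1 (0.789) and the selectin ligand gene Selplg (0.786), while r between Ccr2 and Ccl2 was 0.465, at rank 914. The lists were not stable: with only groups of at least 100 cells, 2 of the 5 genes were shared for Ccl2 and for Ccl7, 4 for Ccl12 and 1 for Ccr2, and with a pseudocount of 1 the shared genes numbered 1 for Ccl2, 2 for Ccl7, 2 for Ccl12 and 4 for Ccr2.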

How the data were processed

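Single cells from the livers of the 3 conditions were profiled by Drop-seq, with 1 library per condition. The authors deposited, for each library, a matrix of UMI counts per gene and barcode, not normalized. Per the file headers, the matrices came from the Drop-seq DigitalExpression program, which counted sense-strand reads with a minimum of 200 genes per barcode, although barcodes with as few as 11 genes are present. The submitters' processing notes name STAR 2.5.2a and the build hg19, which is human. A difference in alignment or annotation would change which genes were counted.

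Here, barcodes with at least 200 genes were taken as cells, and UMIs were summed per library and per gate and scaled to 1000000 UMIs (CPM). The depth was 8013800, 6107866 and 3058967 UMIs in the control, 1-day and 7-day libraries. The precision of each value follows from its own UMIs: CPM carry exact Poisson intervals, shares exact binomial (Clopper-Pearson) intervals and ratios conditional binomial intervals, all at 95% and all for counting error only. A count of 0 allows up to 3 counts, and no ratio was given where both groups had at most 3. With 1 pooled library per condition no test was made. A fold of 2 was used to count genes with at least 50 UMIs in the libraries compared.

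A marker counted in a cell where it stood above its mean over the library, and a gate needed 2 such markers and a lead of 1. This rule replaced detection of 1 UMI after the data were seen, because detection placed most 7-day cells in the neutrophil gate. Gates under 50 cells are not shown. Doublets were not called; leaving out the 5% of barcodes with the most UMIs served as an alternative. The named genes were the 4 genes, the pathway genes past 2-fold (1 of them is not reported here), and for each of the 4 the 5 genes with the highest r. The genes, gene lists and markers were chosen with earlier results of these data known.

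Alternatives covered the barcodes used, mitochondrial UMIs, the gate, gate makeup, free RNA, shared barcodes, thinning depth and pseudocount; leaving out S100a8 and S100a9, the endothelial correction, the shared barcodes and the richest monocyte were chosen after seeing the data. The scripts were tested on simulated data. Python 3.11.15, numpy 2.4.6, scipy 1.17.1 and matplotlib 3.10.9 were used. Promoter windows came from RefSeq on GRCm38.p6 and held 2 of the 4 genes.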

Additional observations from a re-analysis of the deposited data

Results flagged for a closer look

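All 4 genes stood below the control at 1 day p.i. and above it at 7 days p.i. The ratios to the control were 0.373 and 34.4 for Ccl2, 0.318 and 23.0 for Ccl7, 0.118 and 8.998 for Ccl12, and 0.192 and 1.82 for Ccr2. Both time points share the 1 control library, the genes were picked for these differences, and the difference between the time points was not tested.

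Transcripts of all 4 genes were also present at 7 days p.i. in the 6842 barcodes with under 200 genes. These were not counted as cells and served above only as a level for comparison. Their levels there were 654 CPM for Ccl2 (614 to 696), 302 CPM for Ccl7 (275 to 331), 43.4 CPM for Ccl12 (33.6 to 55.2) and 425 CPM for Ccr2 (393 to 459). In such barcodes of the control the values were 6.93, 5.45, 6.93 and 284 CPM. Each 7-day value lay below the value of the 7-day cells.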

How the results depend on the processing

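No paired analysis was possible because each condition had 1 library and the result comes from no test. Every library ratio kept its direction under the alternatives run. At 1 day p.i. the ratios moved beyond counting error with at least 500 genes per cell (Ccl2 0.282, Ccl7 0.223, Ccr2 0.231), with the gate makeup of the control (Ccl2 0.931, Ccl7 0.812, Ccr2 0.274), and with that makeup but without the monocyte richest in the gene (Ccl2 0.499, Ccr2 0.264). At 7 days p.i. they moved with at least 500 genes per cell (Ccl2 28.5, Ccl7 19.3, Ccr2 2.69), with at most 20% mitochondrial UMIs (26.6, 17.7, 2.04), with the makeup of the control (Ccl2 28.4, Ccr2 1.37), and with every barcode (Ccr2 1.67). Without mitochondrial UMIs in the totals Ccl2, Ccl7, Ccl12 and Ccr2 stood at 28.6, 19.1, 7.46 and 1.51, and also without hepatocyte secretory and hemoglobin UMIs at 28.5, 19.1, 7.44 and 1.51. The makeup used 14 groups at 1 day and 10 at 7 days, with ungated cells as 1 group and at least 20 cells per group in each library compared. Some were under 50 cells, such as 41 lipid-associated macrophages and 25 NK cells at 1 day and 21 NK cells at 7 days p.i.

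Within gates, Ccl2 in monocytes at 7 days p.i. was 28.2-fold above the control with a lead of 2 markers, 29.5-fold with at most 20% mitochondrial UMIs and 121-fold with the endothelial level taken off, and in C1q macrophages it was 38.7-fold above with the latter. Ccr2 in monocytes was 0.790 with 3 markers and 0.805 with at most 20% mitochondrial UMIs. Ccl2 in the Arg1 gate over monocytes was 2.74 with a lead of 2 markers and 2.84 with the endothelial level taken off. Direction turned for Ccl2 in monocytes at 1 day p.i. (5.01 to 0.870 without the 5% of barcodes with the most UMIs) and for Ccr2 in neutrophils at 7 days p.i. (1.02 to 0.951 in the same setting and 0.847 with at most 20% mitochondrial UMIs, but 1.399 with a marker counted at 1 UMI and 1.36 without S100a8 and S100a9). The cause was not tested. Free RNA scaled by hepatocyte markers came to more than all UMIs of the 7-day C1q and monocyte gates and the control neutrophil gate, so it gave no value there. It came to 74.4% of UMIs in the 7-day Arg1 gate, 68.9% in 7-day neutrophils, 61.2% and 62.1% in control C1q macrophages and monocytes and 49.2% in control Kupffer cells, and with it Ccr2 in 1-day monocytes was 0.146. Depth limits Ccl12 most, with 13 UMIs at 1 day p.i.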
